A study of Mus musculus with 6 samples.

Results

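Glycolysis and hypoxia response genes were followed in RNA sequencing of limb bone perichondrium, the connective tissue sheath around cartilage and bone, from mice at postnatal day 4. The group holds 38 genes: the glucose transporter Slc2a1, the glycolytic enzymes with their tissue isoforms, the genes that decide the fate of pyruvate and lactate, the subunits and prolyl hydroxylases of hypoxia-inducible factor (HIF), and established HIF targets. Members were chosen by symbol, and every one of the 38 symbols was found among the 55536 genes of the count matrix. One group of 3 libraries came from wild-type mice and the other from 3 libraries of Fbn1Scx-/- mice, called knockout here, which lost Fbn1 through Scx-Cre recombinase. Fbn1 encodes fibrillin-1, the main protein of extracellular microfibrils. Scx-Cre is driven by the scleraxis gene of tendon and ligament precursors, so perichondrial cells that never expressed scleraxis keep the gene. The labels give no bone, no sex, no number of animals per library and no Cre status for the wild type. Libraries carry the names of their titles, WT-596, WT-597 and WT-795 in the wild type and mut-596, mut-597, mut-795 in the knockout, and values follow that order of numbers. Because nothing says that each library came from its own animal, p-values measure only the spread between these libraries. The study's title concerns TGF-beta signalling in the perichondrium and overgrowth of long bones, and the labels do not state a question about metabolism.

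Glycolysis turns glucose into pyruvate in the cytosol, and lactate dehydrogenase passes pyruvate on to lactate when oxygen or mitochondrial capacity is short. HIF is a pair of proteins whose alpha subunit is hydroxylated by the EGLN prolyl hydroxylases when oxygen is present, and is then destroyed. At low oxygen the alpha subunit persists, binds a short core motif in promoters and enhancers, and raises the transcription of most glycolytic enzymes, of VEGF and of its own hydroxylases. Growing cartilage has no blood vessels and depends on this system, while the perichondrium around it carries vessels and feeds osteoblast and chondrocyte progenitors.

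The promoters of 8 members are shown because these genes carry the pattern described here. Eno1, Pkm, Gpi1, Aldoa and Gapdh are the members with an unadjusted p under 0.05, Ldha and Pgk1 are textbook HIF targets whose levels hardly differed between the groups, and Egln3 is the HIF hydroxylase whose groups did not overlap. Each window runs from 250 bases before to 50 bases after a RefSeq transcription start, is written 5′ to 3′ on the gene's own strand, and carries coordinates of GRCm38.p6. Capitals mark the HIF core, searched on both strands. The first form of the core is ACGTG, which reads CACGT where it lies on the opposite strand. The second form of it is GCGTG, which there reads CACGC. The first form is also part of the palindromic E-box bound by other factors, and matches that start 1 base apart, as in that palindrome, were counted as 1 run. Where a gene has several windows, 1 that holds the letters was taken.
Eno1, chr4:150236947-150237246, plus strand: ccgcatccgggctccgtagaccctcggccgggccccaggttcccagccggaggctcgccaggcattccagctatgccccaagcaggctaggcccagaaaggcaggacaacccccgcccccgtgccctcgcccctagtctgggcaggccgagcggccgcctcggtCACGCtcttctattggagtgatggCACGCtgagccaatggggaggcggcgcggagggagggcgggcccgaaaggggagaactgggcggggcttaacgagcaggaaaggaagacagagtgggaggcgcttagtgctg
Pkm, chr9:59656977-59657276, plus strand: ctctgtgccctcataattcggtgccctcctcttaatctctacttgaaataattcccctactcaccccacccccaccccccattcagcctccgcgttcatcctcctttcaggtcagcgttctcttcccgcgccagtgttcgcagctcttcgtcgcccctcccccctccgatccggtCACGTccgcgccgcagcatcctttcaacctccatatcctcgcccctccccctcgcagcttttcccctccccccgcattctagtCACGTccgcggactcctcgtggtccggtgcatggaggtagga
Gpi1, chr7:34230287-34230586, minus strand: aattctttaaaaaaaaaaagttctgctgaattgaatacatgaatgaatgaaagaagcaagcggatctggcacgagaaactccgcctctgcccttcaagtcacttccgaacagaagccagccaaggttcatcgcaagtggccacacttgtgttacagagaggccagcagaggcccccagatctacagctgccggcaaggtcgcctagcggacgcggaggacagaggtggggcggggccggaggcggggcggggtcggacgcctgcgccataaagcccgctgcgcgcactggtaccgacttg
Aldoa, chr7:126799205-126799504, minus strand: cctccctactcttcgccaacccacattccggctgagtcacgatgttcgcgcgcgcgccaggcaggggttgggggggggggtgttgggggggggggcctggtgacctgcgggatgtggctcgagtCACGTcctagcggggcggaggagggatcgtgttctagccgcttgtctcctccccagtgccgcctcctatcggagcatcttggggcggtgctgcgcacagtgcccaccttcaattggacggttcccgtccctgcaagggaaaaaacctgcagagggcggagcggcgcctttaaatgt
Gapdh, chr6:125165724-125166023, minus strand: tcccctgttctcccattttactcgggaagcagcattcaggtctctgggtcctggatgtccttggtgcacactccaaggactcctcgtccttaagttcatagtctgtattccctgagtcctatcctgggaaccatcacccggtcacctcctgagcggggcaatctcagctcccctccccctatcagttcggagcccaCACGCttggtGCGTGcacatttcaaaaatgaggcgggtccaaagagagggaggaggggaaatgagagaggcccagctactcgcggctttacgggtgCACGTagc
Ldha, chr7:46845554-46845853, plus strand: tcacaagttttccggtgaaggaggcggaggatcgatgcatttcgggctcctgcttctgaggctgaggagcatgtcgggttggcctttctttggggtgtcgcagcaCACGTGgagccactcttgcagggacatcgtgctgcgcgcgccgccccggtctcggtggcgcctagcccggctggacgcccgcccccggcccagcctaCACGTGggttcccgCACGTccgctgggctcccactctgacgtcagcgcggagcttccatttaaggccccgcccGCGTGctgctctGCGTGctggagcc
Pgk1, chrX:106186850-106187149, plus strand: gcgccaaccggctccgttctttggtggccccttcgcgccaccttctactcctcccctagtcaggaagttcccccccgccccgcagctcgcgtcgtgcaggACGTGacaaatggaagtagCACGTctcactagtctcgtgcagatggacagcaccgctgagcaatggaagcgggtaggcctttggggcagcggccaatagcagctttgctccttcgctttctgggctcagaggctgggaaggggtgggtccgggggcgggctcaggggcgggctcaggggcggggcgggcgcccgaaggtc
Egln3, chr12:54203825-54204124, minus strand: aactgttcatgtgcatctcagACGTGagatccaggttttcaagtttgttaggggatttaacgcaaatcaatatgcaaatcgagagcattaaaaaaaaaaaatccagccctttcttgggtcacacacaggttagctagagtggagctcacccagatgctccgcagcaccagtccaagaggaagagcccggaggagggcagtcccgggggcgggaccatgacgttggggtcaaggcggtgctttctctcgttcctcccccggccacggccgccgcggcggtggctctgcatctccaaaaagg
Eno1, Pkm and Pgk1 carried 2 runs of these letters each, Gapdh 3, Ldha 5, Aldoa and Egln3 1 each, and the Gpi1 window none. The letters stood in 40 of the 50 RefSeq windows of members, which is 80%, and in 43.8% of all 32851 windows of the same 300 bases. Counted by gene, 32 of the 36 members with a window (88.9%) had them in at least 1 window, against 46.7% of all symbols. The shares were not matched for base composition, a match is a description of the letters and not a bound site, and the letters occurred both in members with low fold changes and in members near 0.

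Total counts per library lay between 7209217 and 10316017, and 15712 genes passed the filter on low counts. Fbn1, the targeted gene, had 76, 45 and 69 counts in the knockout libraries and 1255, 898 and 458 in the wild type, and it fell by 3.49 on the log2 scale (edgeR adjusted p = 1.0e-04). It was the only gene of 15712 with an edgeR adjusted p under 0.05, which is 0.00636% of those tested. The 14 perichondrium and periosteum markers were all detected, among them Postn, Col1a1 and Prrx1, and summed to between 31360 and 32430 CPM (counts scaled to a common library size) in the 6 libraries. Most of that sum was Col1a2 (mean 16770 CPM in knockout, 15360 CPM in wild type) and Col1a1 (6571 and 9809 CPM). The log2 fold changes of 7 markers lay above 0 and of 7 below, so the sum does not show an equal share of perichondrial cells. Other cells were present too. Skeletal muscle markers summed to 2759, 5828 and 5718 CPM in the knockout libraries and to 5168, 12400 and 3787 CPM in the wild type, and 7 Schwann cell markers to 207 to 323 CPM against 212 to 225 CPM. Xist was high in mut-596 and mut-597 (6221 and 4024 counts) and at 4 counts or fewer in the other libraries, where the Y-linked Ddx3y had 842 to 1641 counts.

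Of the 38 members, 35 passed the filter and were tested. None of the 35 was past the threshold, an edgeR adjusted p under 0.05. Values therefore describe the libraries, and no member is said to have risen or fallen. Lower in knockout at an unadjusted p under 0.05 were 5 members, Eno1, Pkm, Gpi1, Aldoa and Gapdh, or 14.3% of those tested, beside 7.12% of all genes. In the other direction there were 0 members, beside 3.37% of all genes. With DESeq2, on all genes with any count, 6 of 38 members were lower, with Pfkm added (15.8%, beside 3.48% of 31957 genes). That fit had 0 members higher, beside 1.65% of genes, and 0 past the threshold. The median log2 fold change of the tested members, knockout against wild type, was -0.21, with 23 below 0 and 12 above, beside 0.01 over all genes. Groups that did not overlap, every knockout library below every wild-type library, were found for 2 of the tested members, Pkm and Egln3, beside 6.22% of all genes. Likewise 2 members, Slc16a1 and Pfkfb3, had every knockout library above every wild-type library, beside 5.66% of all genes. These last shares lie close to the background. In bulk tissue, fewer cells of a type and less RNA per cell cannot be told apart, and this holds for every value here.

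The values below 0 were gathered in the enzymes. Among the glucose transporter, the glycolytic enzymes and the lactate dehydrogenases, 13 of 16 tested genes lay below 0, with a median of -0.43. Among the other 19 tested members (regulators, lactate transporters and hypoxia response genes) 10 lay below 0 and the median was within 0.01 of 0. The split by role uses the same contrast and has no test.

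**Figure D1:**
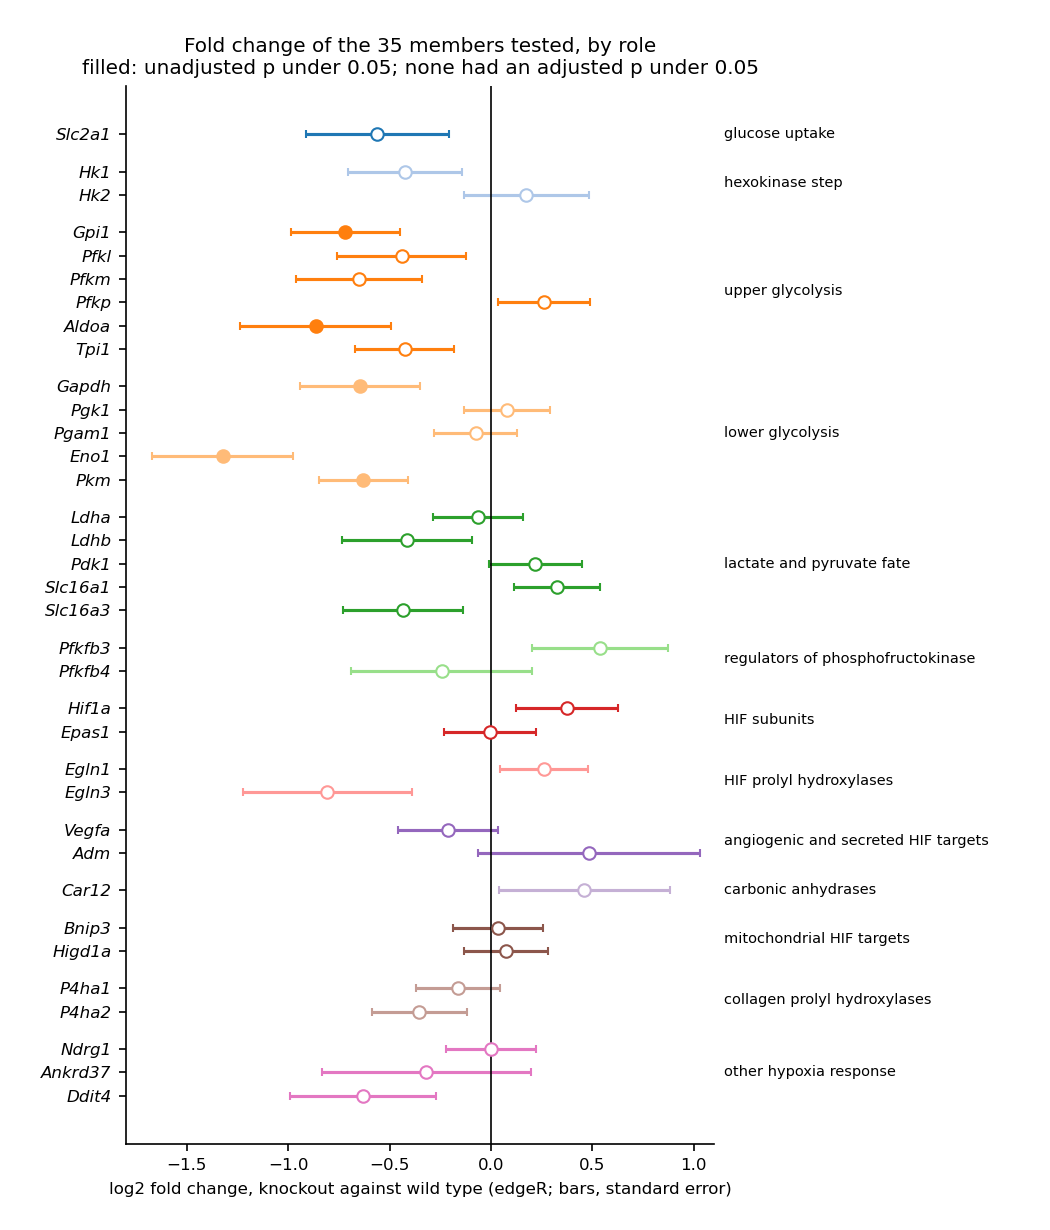
Knockout against wild-type log2 fold change for the 35 members tested, with standard errors, grouped by role from glucose uptake to the hypoxia response. Filled points have an unadjusted p under 0.05, and all 5 of them are glycolytic enzymes between -0.63 (Pkm) and -1.32 (Eno1), while regulators such as Pfkfb3 (0.54) and Hif1a (0.38) lie above 0.

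CPM was divided by kilobases of exon, with all annotated exons of a gene joined. On this scale glycolytic genes stood at very unequal levels in the wild-type libraries, which held muscle RNA as well. Aldoa stood at 130 ± 75 CPM per kilobase (SD, n = 3), Ldha at 111 ± 4.8, Tpi1 at 79.7 ± 19, Gapdh at 74.5 ± 27, Pgam1 at 68.8 ± 4.9, Pgk1 at 44.7 ± 5.5 and Pkm at 32.6 ± 6.3. Aldoa and Ldha, Tpi1 and Gapdh, and Gapdh and Pgam1 differed by less than the sum of their SDs. Eno1 was lower, at 17.5 ± 8.5 CPM per kilobase, and did not differ from Hif1a at 18.4 ± 6.3 beyond that spread. Glucose uptake and the hexokinases were far lower, with Slc2a1 at 1.33 ± 0.43, Hk2 at 1.32 ± 0.46 and Hk1 at 1.12 ± 0.16 CPM per kilobase. Of the phosphofructokinase subunits, Pfkm stood at 10.5 ± 4.8 CPM per kilobase, not beyond the summed SDs from Eno1, and Pfkp and Pfkl at 1.6 ± 0.30 and 0.91 ± 0.28. Full-length cDNA was fragmented for these libraries, and genes with near-identical copies elsewhere may be listed too low. The joined exons can be longer than the transcript expressed, so ranks depend partly on annotation. They came to 1982 bases for Pgam1, 4133 for Gapdh, 3340 for Pfkm and 13401 for Pfkp. Before this scaling the wild-type means of Pfkm and Pfkp were 35.2 and 21.5 CPM. Summed muscle markers stood at 5168, 12400 and 3787 CPM in the wild type. Aldoa (356, 608 and 172 CPM) and Pfkm (29.3, 53.3 and 23.0 CPM) ranked these libraries in the same order. Pgk1, Pgam1, Pfkp and Pfkl did not. The part of muscle RNA in these levels and ranks was not tested.

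Slc2a1, the basal glucose transporter GLUT1, was at 3.17, 3.75 and 2.68 CPM in the 3 knockout libraries and at 3.70, 6.42 and 3.88 CPM in those of the wild type. Only WT-597 stood clearly apart, and the groups overlapped. Its log2 fold change was -0.56 (SE 0.35, edgeR unadjusted p = 0.136). Hexokinases trap glucose as glucose 6-phosphate. Hk2, the inducible form, was at 10.4, 8.10 and 8.13 CPM in the knockout libraries and at 4.94, 10.4 and 8.31 CPM in the wild type, with 1 low wild-type library and a log2 fold change of 0.17 (SE 0.31). Hk1, the constitutive form, had a mean of 7.18 ± 1.6 CPM against 9.59 ± 1.4 CPM (SD, n = 3 each) and a log2 fold change of -0.42, with overlapping groups.

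In upper glycolysis 5 of 6 tested genes lay below 0. Gpi1, which turns glucose 6-phosphate into fructose 6-phosphate, was at 34.2, 40.5 and 37.1 CPM in the knockout libraries and at 59.3, 85.8 and 38.5 CPM in the wild type. WT-596 and WT-597 stood above all others and WT-795 lay inside the knockout range. The log2 fold change was -0.72 (SE 0.27, edgeR unadjusted p = 0.0177, adjusted p = 0.459). Pfkm, the muscle-type subunit of phosphofructokinase, was at 15.5, 27.6 and 24.4 CPM against 29.3, 53.3 and 23.0 CPM. Here WT-597 stood far above every other library, and the log2 fold change was -0.65 (SE 0.31, edgeR unadjusted p = 0.0541). The liver-type subunit Pfkl lay at -0.44 and the platelet-type subunit Pfkp at 0.26, both with overlapping groups.

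Aldoa, the aldolase of muscle and most other tissues, was at 134, 244 and 246 CPM in the knockout libraries and at 356, 608 and 172 CPM in the wild type. WT-596 and WT-597 lay above all knockout libraries, WT-795 lay below mut-597 and mut-795, and mut-596 was the lowest. The log2 fold change was -0.86 (SE 0.37, edgeR unadjusted p = 0.0348, adjusted p = 0.459). Tpi1, triose phosphate isomerase, lay at -0.43 (SE 0.25) with 163 ± 33 CPM against 219 ± 53 CPM (SD, n = 3 each). Aldoc, the brain-type aldolase, failed the filter, with 4, 0 and 0 counts in the knockout libraries and 6, 0 and 0 in the wild type, where a count of 0 allows up to 3 counts.

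Lower glycolysis, which yields ATP and pyruvate, held both the lowest value and members near 0. Eno1, alpha-enolase, was at 25.2, 44.5 and 42.9 CPM in the knockout libraries and at 105, 133 and 43.8 CPM in the wild type. WT-596 and WT-597 lay more than 2-fold above every other library, and WT-795 lay between the knockout libraries mut-795 and mut-597. Eno1 had a log2 fold change of -1.32 (SE 0.35, edgeR unadjusted p = 0.00175, adjusted p = 0.459). Pkm, pyruvate kinase of the final step, was at 101, 114 and 102 CPM against 150, 199 and 141 CPM. This was the single glycolytic enzyme whose groups did not overlap, with a log2 fold change of -0.63 (SE 0.22, edgeR unadjusted p = 0.0116, adjusted p = 0.459). Gapdh, which oxidises glyceraldehyde 3-phosphate and often serves as a reference gene, was at 134, 234 and 223 CPM against 331, 406 and 187 CPM. Again WT-795 lay among the knockout libraries, and the log2 fold change was -0.65 (SE 0.30, edgeR unadjusted p = 0.0463, adjusted p = 0.471).

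Pgk1, the X-linked phosphoglycerate kinase of the first ATP-yielding step, was at 92.6, 108 and 118 CPM in the knockout libraries and at 86.2, 109 and 106 CPM in the wild type. The groups overlapped almost completely, and the log2 fold change was 0.08 (SE 0.21). Pgam1, phosphoglycerate mutase, lay at -0.08 (SE 0.20), with 130 ± 9.0 CPM against 136 ± 9.7 CPM (SD, n = 3 each). Pgk1 and Pgam1 catalyse the steps between Gapdh and enolase, so these values near 0 stand between lower ones in the pathway. With near-identical copies summed, as described below, Pgk1 was at -0.11 and Pgam1 at -0.18. Eno2, the neuronal enolase, failed the filter, with 7, 7 and 11 counts against 17, 16 and 6.

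**Figure D2:**
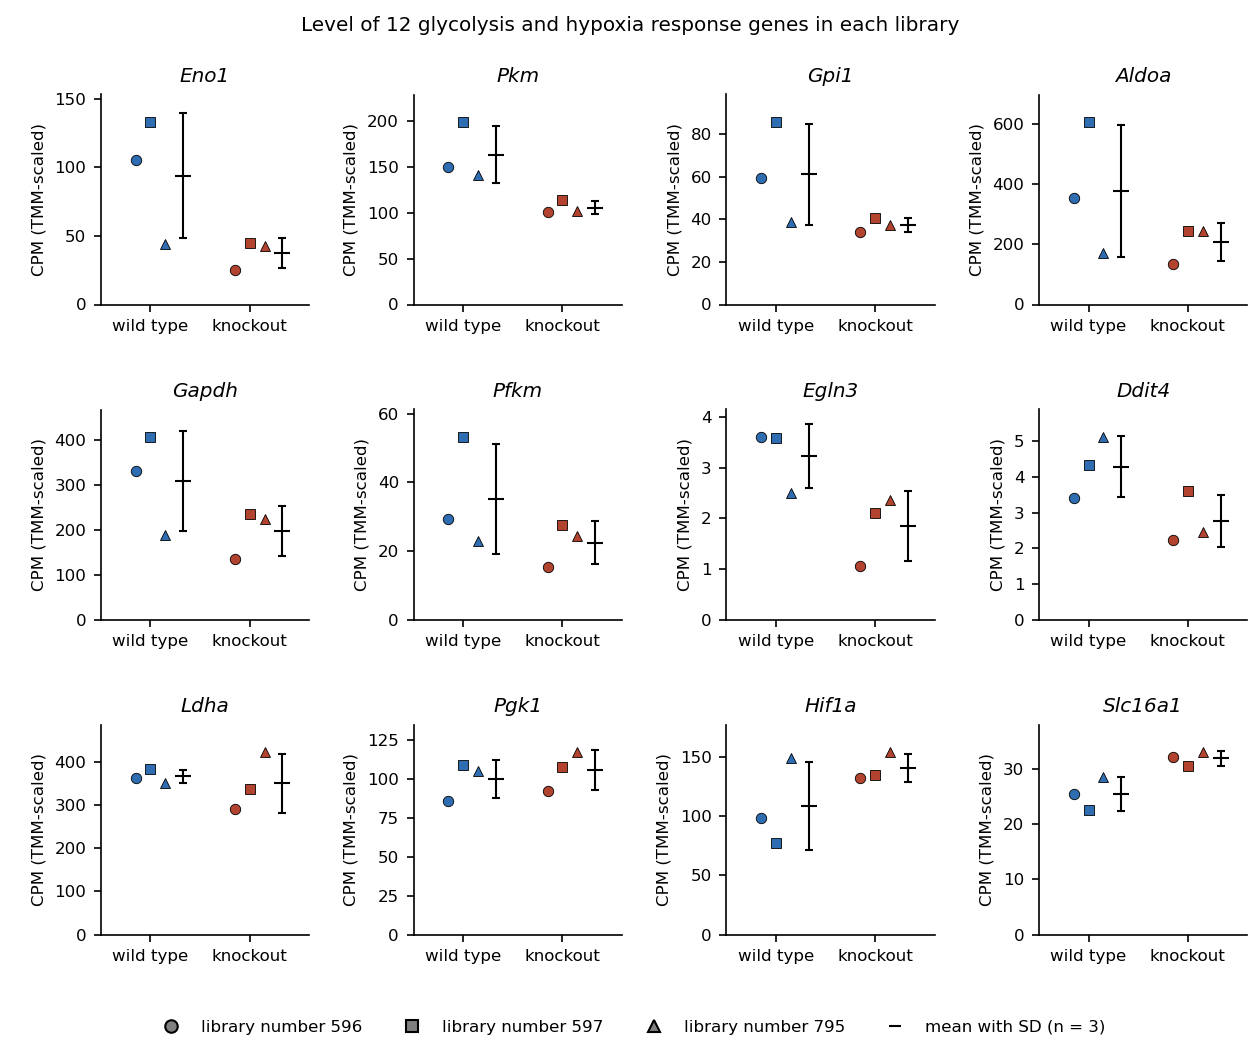
TMM-scaled CPM of 12 members in each library, wild type in blue and knockout in red, with the mean and SD of 3 libraries. The first 8 have the smallest unadjusted p, the next 3 were fixed by rule and Slc16a1 was added after its values were seen; for Eno1, Aldoa, Gpi1 and Gapdh 2 wild-type libraries lie above all others while WT-795 (triangle) lies within the knockout range.

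Ldha, the lactate dehydrogenase subunit that favours lactate formation, was at 290, 336 and 422 CPM in the knockout libraries and at 363, 383 and 351 CPM in the wild type. The wild-type libraries were close together inside the wider knockout range, and the log2 fold change was -0.07 (SE 0.22). Ldhb, the subunit of oxidative tissues, lay at -0.41 (SE 0.32). Pdk1, the HIF-responsive kinase that keeps pyruvate out of mitochondria, was at 24.0, 23.3 and 29.6 CPM against 21.3, 18.6 and 26.5 CPM, a log2 fold change of 0.22 (SE 0.23) with overlapping groups. Slc16a1, the lactate and pyruvate transporter MCT1, was at 32.1, 30.5 and 33.0 CPM against 25.4, 22.5 and 28.6 CPM. All knockout libraries lay above all wild-type libraries, with a log2 fold change of 0.33 (SE 0.21, edgeR unadjusted p = 0.145). The HIF-responsive lactate exporter Slc16a3 (MCT4) lay on the other side of 0, at -0.43 (SE 0.30).

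Pfkfb3 and Pfkfb4 encode enzymes that make fructose 2,6-bisphosphate, the activator of phosphofructokinase. Pfkfb3 was at 4.75, 4.65 and 4.53 CPM in the knockout libraries and at 4.08, 2.55 and 2.91 CPM in the wild type. These groups did not overlap either, with a log2 fold change of 0.54 (SE 0.33, edgeR unadjusted p = 0.129). Pfkfb4 lay at -0.24 (SE 0.45), on 103 counts over all libraries.

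Hif1a, the main HIF alpha subunit, which is controlled chiefly through protein stability, was at 132, 135 and 154 CPM in the knockout libraries and at 98.2, 77.5 and 149 CPM in the wild type. WT-795 lay inside the knockout range, as it did for Eno1, Gpi1 and Gapdh, and the other wild-type libraries lay below it. The log2 fold change was 0.38 (SE 0.25, edgeR unadjusted p = 0.155). Epas1, which encodes HIF-2 alpha of endothelium and other tissues, was at 31.8, 26.9 and 21.8 CPM against 29.4, 23.7 and 27.7 CPM. Its groups overlapped and its log2 fold change was -0.01 (SE 0.23).

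Among the hydroxylases, Egln1, the main oxygen sensor PHD2, was at 33.7, 27.6 and 26.9 CPM against 22.0, 27.1 and 24.3 CPM. A single wild-type library, WT-597, exceeded the lowest knockout library, and the log2 fold change was 0.26 (SE 0.22, edgeR unadjusted p = 0.243). Egln3 (PHD3), a strongly HIF-induced hydroxylase, was at 1.06, 2.10 and 2.37 CPM against 3.61, 3.59 and 2.49 CPM. Its groups did not overlap, though WT-795 and mut-795 were separated by little. The log2 fold change of Egln3 was -0.81 (SE 0.42, edgeR unadjusted p = 0.0730), on 8, 14 and 23 counts against 38, 38 and 18.

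The remaining tested HIF targets had log2 fold changes between -0.63 and 0.48. Vegfa, the angiogenic growth factor, was at 9.90, 11.7 and 8.54 CPM in the knockout libraries and at 11.5, 11.1 and 12.2 CPM in the wild type, with overlapping groups and a log2 fold change of -0.21 (SE 0.25). Bnip3, a mitophagy receptor, was at 21, 22.5 and 25.8 CPM against 23.4, 25.4 and 18.9 CPM, a log2 fold change of 0.03 (SE 0.22). Higd1a, a mitochondrial protein of the hypoxia response, lay at 0.07 (SE 0.21), and Ndrg1, a stress-induced gene, had 23.8 ± 2.8 CPM against 23.8 ± 3.2 CPM (SD, n = 3 each). P4ha1, the collagen prolyl hydroxylase subunit needed for stable collagen helices, was at 75.4, 82.8 and 71.4 CPM against 74.8, 93.1 and 89.1 CPM. Its groups overlapped with a log2 fold change of -0.16 (SE 0.21), and its partner gene P4ha2 lay at -0.35 (SE 0.24). Ddit4 (REDD1), an inhibitor of mTORC1 that responds to hypoxia and to glucocorticoids, was at 2.25, 3.60 and 2.47 CPM against 3.42, 4.34 and 5.13 CPM. Only mut-597 overlapped the wild type, and the log2 fold change was -0.63 (SE 0.36, edgeR unadjusted p = 0.0998). Adm, the vasodilator adrenomedullin, lay at 0.48 (SE 0.55) and Ankrd37 at -0.32 (SE 0.51), on 62 and 81 counts in all.

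Carbonic anhydrases export acid. Car9, the carbonic anhydrase most strictly tied to HIF, failed the filter with 1, 2 and 1 counts in the knockout libraries and 12, 4 and 3 counts in the wild type. Every knockout library lay below every wild-type library, on counts too low for the test. Car12 lay at 0.46 (SE 0.42), with overlapping groups.

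Isoform shares were compared within each step, because a share inside a library does not depend on how libraries are scaled. Shares of length-scaled counts were formed for 11 isoforms, and 3 libraries against 3 cannot give an exact permutation p below 0.1. Hk1 took 36.5%, 39.3% and 31.9% of the hexokinase counts in the knockout libraries and 53.4%, 42.2% and 45.3% in the wild type. The groups did not overlap, and the exact two-sided permutation p was 0.1 (0.367 after adjustment over the 11 shares). Egln1 took 95.9%, 90.7% and 89.4% of the counts of Egln1 and Egln3, against 81.9%, 84.8% and 87.8%. This share was higher in every knockout library, with the same exact permutation p of 0.1 (adjusted 0.367). Eno1 took 96.8% ± 0.74 of the counts of both enolases against 98.3% ± 0.42 (SD, n = 3 each), also without overlap and with the same exact p, on few Eno2 counts. Pfkm took 71.3% ± 7.0 of phosphofructokinase counts against 79.2% ± 6.3, and Slc16a1 78.3% ± 4.7 of the counts of both lactate transporters against 68.4% ± 9.5 (SD, n = 3 each), both with overlapping groups. Without length scaling the mean Pfkm share was 42.2% in knockout against 54.4% in wild type, and the Hk1 share 44.5% against 55.8%. Ldha kept 92.5% ± 0.29 against 90.9% ± 3.6 of lactate dehydrogenase counts.

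**Figure D3:**
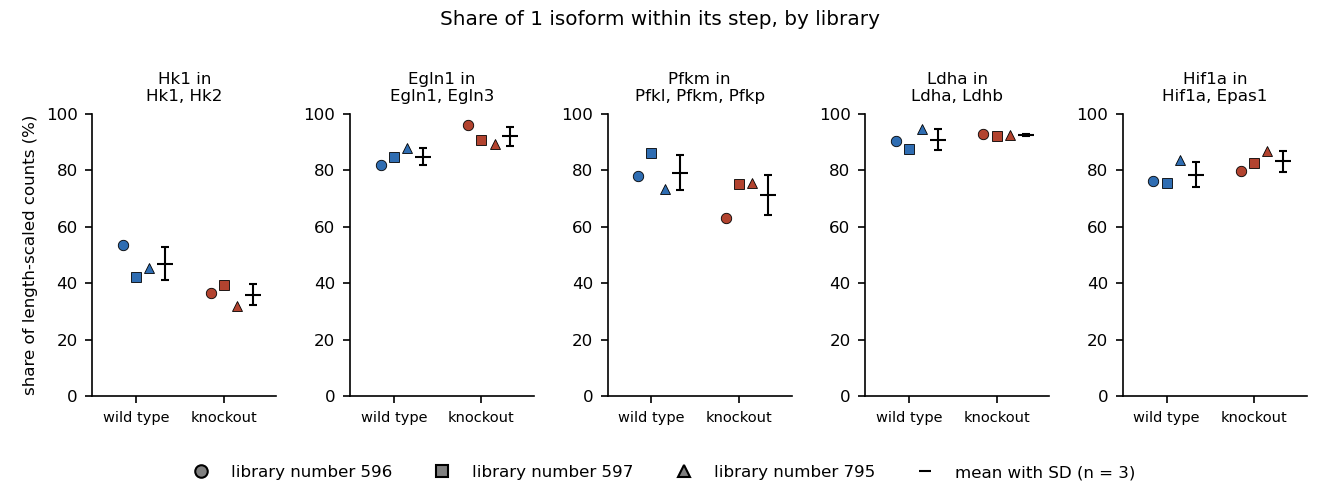
Share of length-scaled counts taken by 1 isoform within its step, in percent, for each library with the mean and SD of 3 libraries. The Hk1 share is lower and the Egln1 share higher in every knockout library than in any wild-type library, and the shares of Pfkm, Ldha and Hif1a overlap between the groups.

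How often each library stood at an end was counted for the 23 tested members below 0, beside all genes below 0. WT-597 was the highest library for 13 of these members (56.5%), beside 47.9% of such genes, and mut-596 the lowest for 12 (52.2%), beside 43.3%. WT-795 was the lowest wild-type library for 13 (56.5%), beside 66.2%, and lay within the knockout range for 11 (47.8%), beside 61.7%. Without WT-795, 5 members had an edgeR adjusted p under 0.05, all lower in knockout. These were Eno1 at -1.68 (adjusted p = 0.00353), Gpi1 at -0.97 (0.0179), Aldoa at -1.23 (0.0184), Gapdh at -0.92 (0.0318) and Pkm at -0.74 (0.0384). Over all alternatives run, the highest adjusted p of each of these 5 genes was 0.93, and the lowest was the value just given, except for Eno1 at 0.000127 with no filter on low counts. With WT-795 left out, the wild type held only WT-596 and WT-597. In these libraries GC-rich transcripts lay higher, with correlations of 0.511 and 0.559 between deviation and GC content, described below. All knockout libraries had correlations below 0, so group and GC trend cannot be told apart in that fit. The fit without WT-795 also put 1517 genes of 16702 past the threshold, against 1 with all libraries. It placed 11 of 36 members lower (30.6%, beside 15.7% of all genes in that fit) and 1, Hif1a at 0.65, higher (2.78%, beside 13.8%) at an unadjusted p under 0.05. Leaving out mut-596 instead left 3 members lower (Gpi1, Eno1 and Pkm; 8.33%, beside 3.66% of all genes), and leaving out WT-597 left 2 (Eno1 and Pkm; 5.71%, beside 3.36%). Leaving out any of the other 3 libraries gave 4 to 6 (11.4% to 16.7%, beside 3.45% to 6.44% of all genes).

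Muscle RNA was highest in WT-597, as several enzymes were. By summed markers WT-596 had 5168 CPM, below mut-597 (5828 CPM) and mut-795 (5718 CPM). By the mean log2 CPM of the markers, WT-596 (7.172) lay above mut-795 (7.132) and below mut-597 (7.302). The order of these libraries thus depends on the measure. Eno1 stood at 105 CPM in WT-596, against 44.5 CPM in mut-597 and 42.9 CPM in mut-795. The muscle marker list has 15 genes, all detected, 13 of them below 0, with a median log2 fold change of -0.67. At an unadjusted p under 0.05 there were 4 lower muscle markers (26.7%, beside 7.12% of all genes). These were Des at -1.42, Actn2 at -1.39, Myh8 at -1.26 and Tnnt3 at -1.25. The 8 glycolytic and energy genes of striated muscle, such as Eno3, Pgam2 and Ckm, summed to 241, 519 and 511 CPM in the knockout libraries and to 513, 1085 and 309 CPM in the wild type. Of them Pygm (-1.26) and Fbp2 (-1.35) had an unadjusted p under 0.05 (25%, beside 7.12% of all genes). With the mean of the muscle markers as a covariate, 2 members remained lower at an unadjusted edgeR p under 0.05, Eno1 at -0.88 (unadjusted p = 0.00218) and Pkm at -0.48 (unadjusted p = 0.0255). This was 5.71% of the tested members, beside 3.58% of all genes in that fit. In that fit Aldoa was at -0.27 (unadjusted p = 0.242), Gapdh at -0.32 (unadjusted p = 0.174) and Gpi1 at -0.39 (unadjusted p = 0.0812), and the adjusted p of each of the 5 was 0.856. With the muscle covariate and WT-795 left out, 0 members were past the threshold, of 3 genes in all, and 6 members were lower at an unadjusted edgeR p under 0.05 (16.7%, beside 8.74% of all genes). Beyond these fits the part of muscle RNA in the values was not tested. Markers of other cells lay lower in some of the same libraries. The 7 osteoblast markers summed to 227, 305 and 273 CPM in the knockout libraries and to 362, 315 and 247 CPM in the wild type, with 5 of 7 below 0, a median of -0.44 and Ifitm5 at -1.07. The 8 macrophage markers summed to 230, 219 and 226 CPM against 315, 247 and 188 CPM, with 5 of 8 below 0 and a median of -0.35. Cd68 was at -1.35, C1qb at -0.79, C1qc at -0.69 and Mrc1 at 0.64. Their part in the members' values was not tested.

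**Figure D4:**
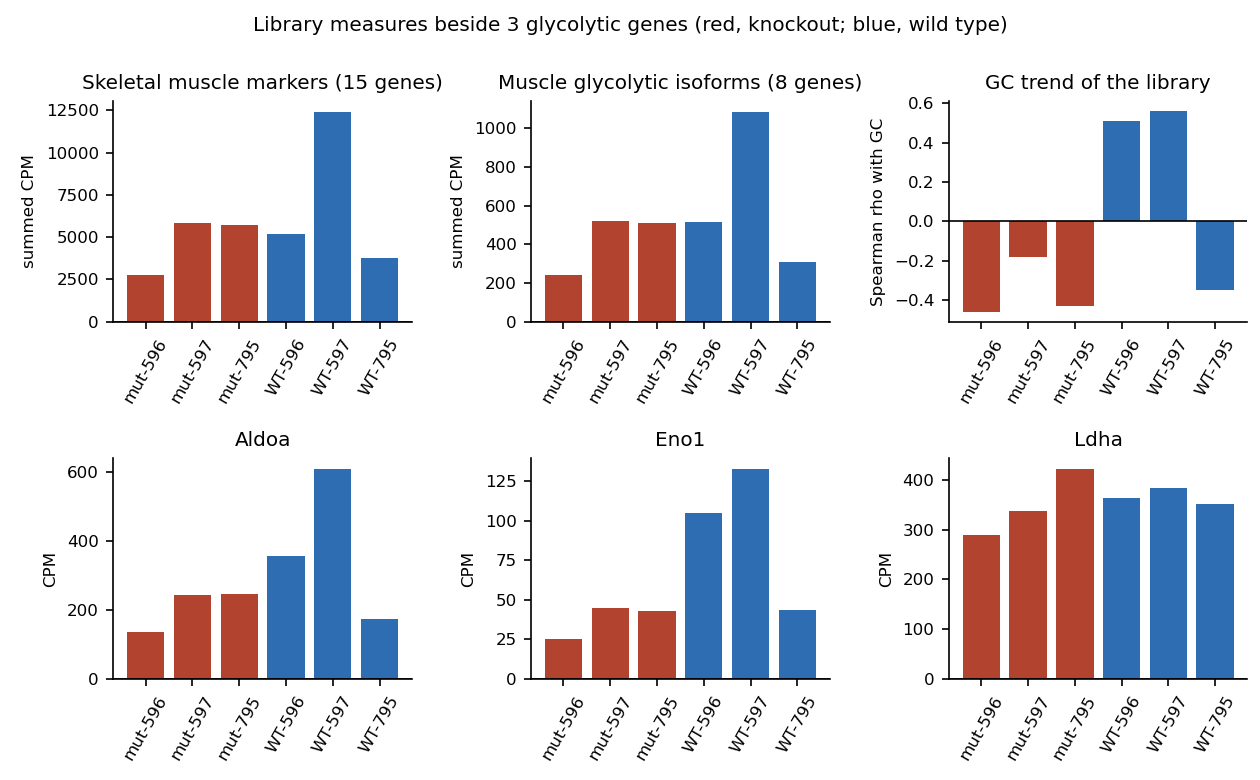
Summed CPM of skeletal muscle markers and of muscle glycolytic isoforms, the Spearman correlation across genes between transcript GC content and each library's deviation from the mean, and CPM of Aldoa, Eno1 and Ldha, for each library. WT-597 is highest for both muscle sums, for Aldoa and for Eno1, WT-596 and WT-597 alone have GC correlations above 0 (0.511 and 0.559), and Ldha is highest in mut-795 (422 CPM).

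Base composition differed between the libraries as well. Across genes, the correlation between a library's deviation and transcript GC content was 0.511 and 0.559 in WT-596 and WT-597, and -0.348 in WT-795 and -0.458, -0.182 and -0.430 in the knockout libraries. GC-rich transcripts thus lay higher in the same 2 libraries that were high for Eno1, Gpi1 and Gapdh. The fold changes of the 35 tested members had a Spearman correlation of -0.74 with GC content, and those of 15701 genes -0.63; genes share libraries and are not independent replicates. Tested members had a median GC content of 52.5%, against 49.5% for all genes. After a correction of each library for its GC trend, these correlations were -0.03 over all genes and -0.38 over the members, so the members kept part of their trend. In that fit Eno1 was at -0.92 (edgeR unadjusted p = 0.00428) and Gpi1 at -0.49 (unadjusted p = 0.0417), Aldoa at -0.47 (unadjusted p = 0.139), Gapdh at -0.29 (unadjusted p = 0.217) and Pkm at -0.27 (unadjusted p = 0.160). Egln1 was then at 0.57 (unadjusted p = 0.0177). The fit thus had 2 members lower (5.71%, beside 4.02% of all genes) and 1 higher (2.86%, beside 1.88%), and the median of the members was -0.09. With the same correction and WT-795 left out, 1 member had an adjusted p under 0.05, Eno1 at -1.16 (edgeR adjusted p = 0.0305), of 101 genes past the threshold. Only knockout libraries, mut-596 and mut-597, were high for Xist, so Xist status and group are partly confounded. In a fit with Xist status as a covariate the group difference rests on mut-795 against the wild type. It had 0 members at an unadjusted p under 0.05, beside 1.9% of all genes lower and 1.22% higher. Eno1 was at -1.13 in it (edgeR unadjusted p = 0.0577).

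**Figure D5:**
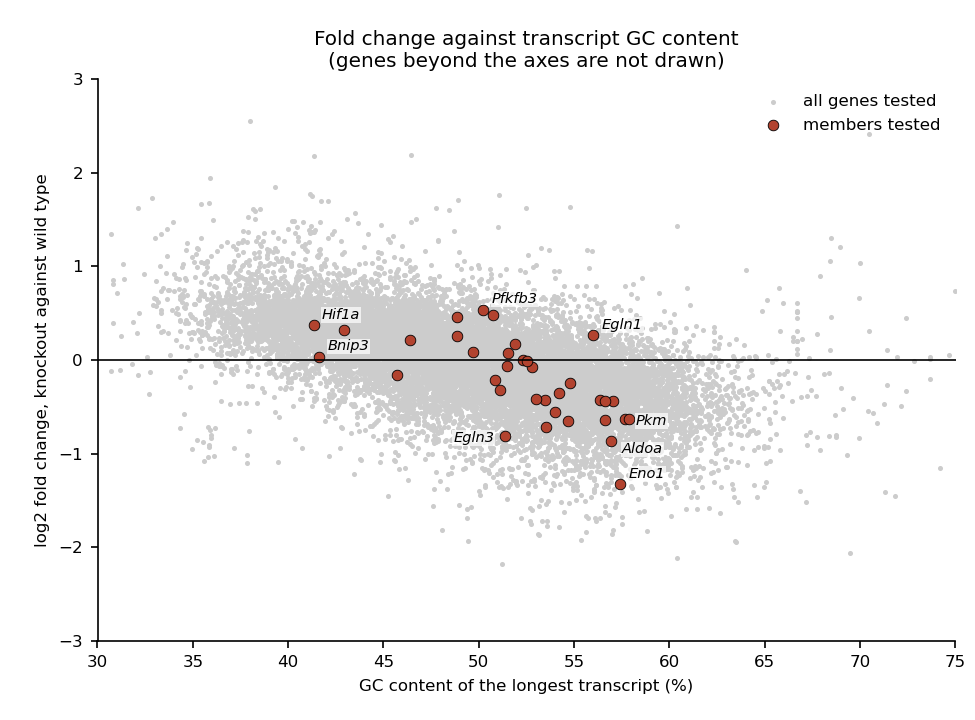
Knockout against wild-type log2 fold change plotted against GC content of the longest transcript, for all genes tested (grey) and the 35 members (red). Members follow the downward slope of all genes, with Hif1a and Bnip3 at the AT-rich end and Eno1 (-1.32), Aldoa (-0.86) and Pkm (-0.63) at the GC-rich end, and Egln1 (0.26) lies above members of like GC content.

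Genes around the members were read from lists chosen by function. No gene of these lists was past the threshold. Over all genes tested, 7.12% were lower and 3.37% higher at an unadjusted p under 0.05. Of 16 tested genes of oxygen sensing and HIF function beside the members, 0 had an unadjusted p under 0.05 in either direction, and the median was -0.06. Its smallest p belonged to Elob, elongin B of the VHL ubiquitin ligase, at -0.52 (edgeR unadjusted p = 0.0586), and to the hydroxylase gene Egln2, at -0.46 (unadjusted p = 0.0714). Among 34 tested further HIF targets, 5 were lower and 2 higher at an unadjusted p under 0.05 (14.7% and 5.88%), with a median of -0.03. Pgf, placental growth factor, had the lowest value, -1.69 (edgeR unadjusted p = 0.00168), at 0.92, 0.90 and 0.93 CPM against 3.70, 2.36 and 2.91 CPM. Its knockout libraries lay below all wild-type libraries, WT-795 included, but on few counts. At the same 0.92 CPM in mut-596, Eno2 had 7 counts. Ndufa4l2, a HIF-induced mitochondrial protein, was at -1.33 (unadjusted p = 0.00362), Mif at -0.93, Hmox1 at -0.75 and Tgfb3 at -0.70. Kdm3a, a HIF-induced histone demethylase, was at 0.81 (edgeR unadjusted p = 0.00733), with 20.9, 14.3 and 15.8 CPM against 9.78, 7.74 and 11.6 CPM and no overlap, and the transferrin receptor Tfrc was at 0.77.

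Of 24 tested genes of sugar entry, glycogen and side branches, 0 had an unadjusted p under 0.05, with a median of -0.16 and the smallest p at Taldo1 (-0.55) and Gpd1 (-0.85). Pyruvate entry and the TCA cycle had 3 of 29 genes lower at an unadjusted p under 0.05 (10.3%, beside 7.12% of all genes). In the other direction there were 0, beside 3.37%, and the median was within 0.01 of 0. The 3 lower genes were Pdk2, a pyruvate dehydrogenase kinase, at -1.43, the 2-oxoglutarate dehydrogenase gene Ogdh at -0.87 and citrate synthase Cs at -0.58. Among 11 tested partners of lactate and acid export, Bsg, the chaperone of both lactate transporters, was at -0.56, while the bicarbonate cotransporter Slc4a7 was at 0.70, both at an unadjusted p under 0.05. Stress and glucocorticoid genes beside Ddit4 had 1 of 12 lower, Asns at -0.58, and 1 higher, Sesn3 at 0.58. Each is 8.33%, beside 7.12% of all genes lower and 3.37% higher.

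Several enzymes have processed copies in the genome whose transcripts are nearly identical, and no source used here says how the authors counted reads with several matches. Eno1 had 3 such copies with 89.6% as many counts as Eno1 itself, among them Eno1b at 99.5% identity with 2244 counts and a log2 fold change of -1.31. With copies summed, Eno1 was at -1.39 (edgeR unadjusted p = 0.00141). Gapdh had 77 copies with 70.2% of its counts, and its sum was at -0.61 (unadjusted p = 0.0525). For Pgk1 the copies Pgk1-rs7 and Gm5537, at 100% identity over the aligned bases, had 733 and 731 counts beside 5386 for Pgk1. Its sum turned from 0.08 to -0.11, and that of Bnip3 from 0.03 to -0.12, so neither direction is certain. Pgam1-ps2, at 100% identity to Pgam1 over the aligned bases, had 24.2% of its counts and was at -0.59 (edgeR unadjusted p = 0.0258), and the sum of both was at -0.18. Higd1a shared its sequence with Gm9790, which had 52.7% of its counts. Bnip3 overlaps Gm45507 on the opposite strand and Pfkp overlaps Pitrm1, and since these libraries do not mark strand their reads cannot be told apart there.

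The authors' deposited table lists 1643 differential genes, 1114 lower and 529 higher in knockout. Among them the authors' deposited table has 6 members, all lower: Eno1 at -1.33, Aldoa at -0.87, Gpi1 at -0.72, Pfkm at -0.66, Gapdh at -0.65 and Pkm at -0.64 on the log2 scale. From the authors' deposited table, 1269 rows matched a DESeq2 fit of the deposited counts by symbol. In that fit 1268 of them had an unadjusted p under 0.05. The DESeq2 adjusted p of these 6 members lay between 0.0851 (Eno1) and 0.477 (Pfkm). At an unadjusted p under 0.05 the DESeq2 fit had 15.8% of 38 members lower, beside 3.48% of 31957 genes. In the other direction it had 0 members, beside 1.65% of genes.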

How the data were processed

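RNA sequencing measured gene expression in 6 libraries, 3 knockout and 3 wild type, grouped by their labels. RNA was isolated on micro columns and made into low-input SMART-Seq v4 and Nextera XT libraries, per the labels' protocols, a chemistry that amplifies full-length cDNA and does not mark strand. The authors deposited raw counts per gene as whole numbers. GRCm38.p6 and DESeq2 are named in the submitters' processing notes, and column names have the form of sorted alignments written by STAR, per the file headers. No source used here gives versions or counting settings. Fold changes in the authors' deposited table are on the log2 scale, judged from their equality with a DESeq2 fit.

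Symbols, positions, exon length and GC content came from GENCODE M21, which named all 55536 genes. Of 2 genes named Aldoa, the one with more counts was used. The test was edgeR 4.0.16 (R 4.3.3, quasi-likelihood, two-sided) with TMM scaling and filterByExpr by group, fitted over 15712 genes with p-values adjusted by Benjamini-Hochberg and called under 0.05. Standard errors are the log2 fold change over the square root of F. The procedure was tested on simulated data. Total counts lay between 7209217 and 10316017 per library, the biological coefficient of variation was 0.249, and without molecular identifiers read counts overstate the number of molecules.

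The members and lists were chosen with earlier results of these data known. All members could be named; values per library are given for the 8 with the smallest unadjusted p and a fixed set of 15, and from other lists for genes at an unadjusted p under 0.05 or else the 2 smallest. A list gene that met this rule is not reported here. Alternatives were other scaling (RLE, upper quartile), other filters, DESeq2 1.42.0, covariates for muscle markers and Xist, a GC correction by loess (span 0.3), a replicate block and leaving out each library. Chosen after seeing the data were sums with near-identical copies (at least 95% identity over 100 bases and 50% of the copy, by blastn), and the GC and muscle fits without WT-795.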

Additional observations from a re-analysis of the deposited data

How the results depend on the processing

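Of the log2 fold changes of members under the alternatives, 527 kept their direction and side of the threshold, 27 values of 10 members turned direction and 7 values of 5 members passed the threshold. The cause was not tested unless a fit's own construction shows it. Genes past the threshold numbered 1 with all libraries, 270 with no filter, 4 with DESeq2, 0 with the Xist covariate (edgeR, where 299 genes were lower and 191 higher at an unadjusted p under 0.05), 101 with the GC correction and WT-795 left out, 3 with the muscle covariate and WT-795 left out, and 1 to 1517 when each library was left out, the highest without WT-795. Members past the threshold numbered 1 with no filter (Eno1 at -1.34), 1 with the GC correction and WT-795 left out (Eno1 at -1.16), and 0 to 5 with each library left out, the 5 being Eno1, Gpi1, Aldoa, Gapdh and Pkm without WT-795. Members lower at an unadjusted p under 0.05 numbered 2 with the muscle covariate (5.71%, beside 3.58% of all genes) and 2 with the GC correction (5.71%, beside 4.02%). They numbered 0 when Xist was a covariate (beside 1.9%) and 2 to 11 with each library left out (5.71% to 30.6%, beside 3.36% to 15.7%). Members higher numbered 1 with the GC correction (2.86%, beside 1.88%) and 1 with the same and WT-795 left out (2.78%, beside 7.36%). With each library left out they numbered 0 to 1 (at most 2.78%, beside 1.05% to 13.8%). The median of the members was -0.12 with the muscle covariate, -0.094 with the GC correction, -0.006 with the same and WT-795 left out, and -0.34 to -0.13 with each library left out.

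Values near 0 turned sign. Bnip3 was at -0.0044 with upper-quartile scaling, -0.0089 with the stricter filter, -0.35 with the GC correction and -0.12 with copies summed, and Pgk1 at -0.11 with copies summed. Ldha was at 0.0017 with the muscle covariate, 0.036 with the GC correction and 0.21 with the Xist covariate. With the GC correction Pgam1 was at 0.082, Pfkfb4 at 0.030, Ndrg1 at 0.14 and Epas1 at 0.15. With each library left out the ranges were -0.092 to 0.11 for Bnip3, -0.10 to 0.11 for Ndrg1, -0.23 to 0.04 for Ldha, -0.71 to 0.042 for Ankrd37, -0.011 to 0.14 for Higd1a, -0.024 to 0.15 for Pgk1, -0.17 to 0.12 for Epas1, -0.085 to 0.42 for Hk2 and -0.47 to 0.14 for Pfkfb4. The difference in the Pfkl share was -1.41 percentage points without length scaling and -1.13 to 1.63 with each library left out, that of the Aldoa share -0.13 to 0.048 and that of the Ldha share -0.0045 to 3.55.

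The libraries share 3 numbers across groups, and the labels do not say what these mark. Deviations of same-numbered libraries correlated at -0.177, 0.244 and -0.201 over genes, so the numbers were not taken as pairs. With a replicate block, 1 gene and 0 members passed the threshold. In that fit 6 members were lower at an unadjusted p under 0.05 (17.1%, beside 5.65% of all genes). The median of the members was -0.17, and Ndrg1 was at 0.0032. Depth limits Adm, Ankrd37, Pfkfb4, Egln3 and Ddit4, with 62 to 184 counts over all libraries, and the 3 untested members.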
